A study of Mus musculus with 3 samples.

Results

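The cells described here are *Pi16*-high fibroblasts of healing mouse skin wounds on Days 7 and 14 after injury. A cell barcode was counted as a fibroblast when it held at least 2000 UMIs, the tagged transcript molecules that the assay counts, at most 10% mitochondrial UMIs, at least 1.5% of its UMIs in 8 fibroblast genes (*Dcn*, *Lum*, *Pdgfra*, *Col6a1*, *Col6a2*, *Col5a1*, *Pcolce* and *Col1a2*) and less than 0.3% in 4 macrophage and neutrophil genes (*Lyz2*, *Tyrobp*, *Fcer1g* and *S100a9*). It was counted as *Pi16*-high when *Pi16* took at least 0.05% of its UMIs, and as *Pi16*-low below that. This gave 1438 *Pi16*-high cells among 6722 gated fibroblasts on Day 7, or 21.4% (20.4 to 22.4%), and 1498 among 7196 on Day 14, or 20.8% (19.9 to 21.8%). Together they are 2936 of the 44693 barcodes in the series, and 6.27% and 9.02% of the barcodes of their own libraries. The wounds were made in the dorsal skin of adult male C57BL/6J mice, an inbred laboratory strain, and the labels name neither a treatment beyond wounding nor an engineered allele for any group. Tissue of several wounds was pooled and dissociated with enzymes, and unsorted cells went into droplets for sequencing of their mRNA, with 1 library each for Days 3, 7 and 14. Since there is 1 library per day, no difference has a replicate check and no test was run. The 2 days also cannot be told apart from their libraries. Levels are CPM, the UMIs of a gene summed over all cells of a group and scaled to a common total of 1000000 UMIs, and ranges in parentheses are exact 95% intervals that cover counting error only.

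PI16 is a peptidase inhibitor that, in mouse tissues, marks a fibroblast population lying in the adventitia of vessels and in the fascia and deep dermis. Such cells have been called universal fibroblasts, because similar cells are found in many organs, and they usually carry the surface proteins DPP4, CD55 and CD34 and the stem cell antigen LY6A. In skin the fascia also holds cells that move into wounds, while myofibroblasts are the contractile fibroblasts that build and pull granulation tissue together.

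*Pi16* lay in a continuous range rather than in 2 separate groups of cells. On Day 7, 3663 gated fibroblasts had no *Pi16* UMI, and on Day 14, 3195 had none. *Pi16*-high cells held a median of 10 *Pi16* UMIs on Day 7 and of 9 on Day 14, and 90.2% and 89.9% of them had at least 5. Just inside the limit, at 0.05 to 0.06%, lay 171 cells on Day 7 and 249 on Day 14. Just outside it, at 0.04 to 0.05%, lay 194 and 304. Because the limit chose the cells, their summed *Pi16* level is a description only. It was 1164 CPM against 65.3 CPM in *Pi16*-low fibroblasts on Day 7 and 1025 CPM against 100.5 CPM on Day 14. Cells of a macrophage gate in the same libraries stood at 11.3 and 10.8 CPM.

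**Figure D1:**
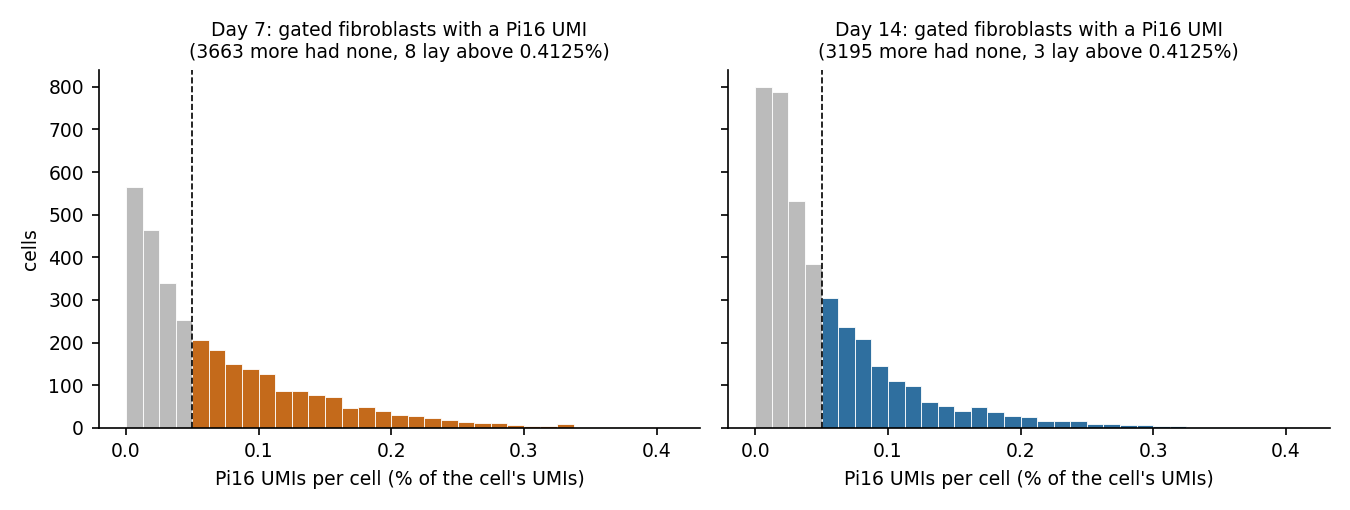
Histograms of the *Pi16* share of UMIs per cell (x axis, percent) against the number of gated fibroblasts with at least 1 *Pi16* UMI (y axis), for Day 7 and Day 14. The dashed line is the limit of 0.05%, coloured bars are *Pi16*-high cells, and the counts fall without a gap across the limit.

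*Pi16*-high cells were shallower than the other gated fibroblasts, with median totals of 9073.5 against 11007.5 UMIs on Day 7 and 9646.5 against 10872 on Day 14. Shares of cells with a UMI are therefore given after each cell was thinned to 2000 UMIs. Scrublet, a doublet caller, marked 6.68% of *Pi16*-high cells on Day 7 and 4.67% on Day 14, against 10.0% and 6.88% of *Pi16*-low cells, and no cell was removed for it. The Day 7 and Day 14 libraries shared 111 barcode sequences, and 0 of them were *Pi16*-high in both. The summed level of 9 macrophage markers was 629 against 694 CPM on Day 7 and 329 against 457 CPM on Day 14, each time *Pi16*-high first. The 4 neutrophil markers summed to 91.0 against 76.7 CPM on Day 7 and 0.791 against 0.841 CPM on Day 14. The 5 endothelial markers summed to 15.0 against 20.9 CPM on Day 7 and 14.4 against 17.7 CPM on Day 14, and the 4 T cell markers to at most 6.00 CPM. The 5 pericyte markers summed to 55.6 against 71.5 CPM on Day 7 and 83.6 against 80.5 CPM on Day 14. The 4 keratinocyte markers summed to 20.9 against 26.4 CPM on Day 7 and 145 against 214 CPM on Day 14. The 4 Schwann cell markers summed to 17.9 against 6.34 CPM on Day 7, nearly all of it *Mbp*, with *Sox10* at 0 in *Pi16*-high cells, and to 10.9 against 14.4 CPM on Day 14. The 4 mesothelial and 3 adipocyte markers stayed at 0.222 CPM or below in *Pi16*-high cells, and the 4 muscle markers at 12.3 CPM or below.

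The other 5 marker genes given for this population were higher in *Pi16*-high than in *Pi16*-low fibroblasts on both days. They were named with these data known and the cells were grouped by *Pi16*, so their levels are a description. *Akr1c18* encodes an aldo-keto reductase that breaks down progesterone. Its level was 217 CPM (209 to 225) against 30.8 CPM (29.4 to 32.2) on Day 7 and 172 CPM (165 to 178) against 17.3 CPM (16.3 to 18.3) on Day 14, log2 ratios of 2.82 (2.73 to 2.90) and 3.31 (3.21 to 3.41). *Scara5*, a ferritin receptor, stood at 238 CPM against 33.6 CPM on Day 7 and at 208 CPM against 71.7 CPM on Day 14. The *Scara5* level of *Pi16*-high cells was thus close on the 2 days while that of *Pi16*-low cells was higher on Day 14, with a log2 ratio of Day 14 to Day 7 of -0.20 (-0.27 to -0.12) in the former and 1.09 in the latter. *Efhd1*, a calcium-binding protein of mitochondria, was at 77.5 CPM against 9.21 CPM on Day 7 and 66.3 CPM against 6.20 CPM on Day 14. *Cd55*, which shields cells from complement, was at 444 CPM against 123 CPM on Day 7 and 512 CPM against 184 CPM on Day 14. *Edn1*, the precursor of the vasoconstrictor endothelin 1, was at 105 CPM (99.8 to 111) against 14.5 CPM on Day 7 and 72.7 CPM (68.5 to 77.2) against 22.3 CPM on Day 14. In the macrophage gate these 5 genes stood between 0.775 and 8.52 CPM.

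Cell by cell the markers were sparse. After thinning, 77.7% (75.5 to 79.9%) of *Pi16*-high cells on Day 7 and 71.5% (69.1 to 73.8%) on Day 14 held a UMI of at least 1 of the 5 genes, against 27.5% and 36.8% of *Pi16*-low fibroblasts and 2.02% and 3.00% of the macrophage gate. At least 3 of the 5 were seen in 18.8% of *Pi16*-high cells on Day 7 and 14.2% on Day 14, against 1.25% and 1.02% of *Pi16*-low cells. No UMI of any of them was seen in 22.3% and 28.5% of *Pi16*-high cells at this depth. The single genes followed the same order. *Cd55* was found in 53.8% and 54.3% of *Pi16*-high cells on Days 7 and 14, against 19.5% and 27.1% of *Pi16*-low cells. *Efhd1* was found in 187 of 1438 and 182 of 1498 *Pi16*-high cells, against 1.97% and 1.11% of *Pi16*-low cells and 0.132% and 0.128% of the macrophage gate.

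The promoters of 3 genes of this population are shown, for *Pi16* itself and for *Akr1c18* and *Efhd1*, which had the largest ratios among the 5 other markers when the smaller of both days is taken. Each runs from 250 bases before to 50 bases after a RefSeq transcript start in GRCm38.p6, the mm10 assembly that the submitters' processing notes name. Capitals mark matches to 6 motifs searched on either strand, namely TATAAA (the TATA box), TGANTCA (the AP-1 core), CAGCTG (an E-box), GGGCGG (the GC box), TGTTTAC (a forkhead core) and CCNCNCCC (a KLF-type CACC box, which can overlap the GC box). *Pi16* (ENSMUSG00000024011) lies at chr17:29318796-29328903, *Akr1c18* (ENSMUSG00000021214) at chr13:4132615-4150646 and *Efhd1* (ENSMUSG00000026255) at chr1:87264353-87310841.
Pi16, chr17:29318632-29318931, plus strand: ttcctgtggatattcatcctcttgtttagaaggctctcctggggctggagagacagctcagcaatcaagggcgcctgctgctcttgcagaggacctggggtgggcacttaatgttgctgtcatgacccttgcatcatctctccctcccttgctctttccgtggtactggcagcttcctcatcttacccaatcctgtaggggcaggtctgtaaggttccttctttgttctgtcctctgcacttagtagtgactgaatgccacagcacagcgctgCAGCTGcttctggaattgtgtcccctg
Akr1c18, chr13:4150597-4150896, minus strand: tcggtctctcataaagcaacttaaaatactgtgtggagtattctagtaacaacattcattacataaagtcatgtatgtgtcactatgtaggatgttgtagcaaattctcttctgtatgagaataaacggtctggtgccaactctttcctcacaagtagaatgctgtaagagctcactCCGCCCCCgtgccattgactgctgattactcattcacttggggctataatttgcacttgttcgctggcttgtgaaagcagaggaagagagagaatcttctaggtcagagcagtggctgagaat
Efhd1, chr1:87264103-87264402, plus strand: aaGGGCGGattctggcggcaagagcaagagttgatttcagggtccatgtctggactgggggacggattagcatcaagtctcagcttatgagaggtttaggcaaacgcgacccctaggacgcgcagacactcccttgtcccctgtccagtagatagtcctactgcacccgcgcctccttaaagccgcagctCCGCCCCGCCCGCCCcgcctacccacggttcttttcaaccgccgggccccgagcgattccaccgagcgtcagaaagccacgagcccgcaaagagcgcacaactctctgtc
The *Pi16* window held only the E-box, from 23 bases after the start. The *Akr1c18* and *Efhd1* windows held the GC box and the CACC box.

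Of the 30 universal fibroblast genes listed, 20 matched a promoter in the RefSeq table. The GC box was in 60% of these 20, in 69.7% of 2352 promoters of genes above the level limits and in 35.9% of all 27025 promoters. The CACC box was in 75%, 73.3% and 49.1%, the E-box in 25%, 14.4% and 16.1%, and the TATA box in 15%, 9.35% and 14.2%. The forkhead core was in 10%, 2.21% and 3.55%, which is 2 of the 20, *Gfpt2* and *Axl*. The AP-1 core was in 5%, 5.23% and 7.93%. These counts describe letters in a window and were not tested.

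A list of 30 universal fibroblast genes was next compared between *Pi16*-high and *Pi16*-low cells. A gene was counted when it had at least 50 CPM and 10 UMIs in 1 of the groups, and called past 2-fold at a log2 ratio of at least 1 either way. A gene under 50 CPM in 1 group was thus counted only through the other group, and could be called only as higher there. Leaving *Pi16* out, 25 of the listed genes met the limits on each day. Of these, 17 were higher past 2-fold on Day 7 and 14 on Day 14, 0 were lower, and the medians were 1.38 and 1.13. The list includes the markers *Akr1c18*, *Scara5*, *Efhd1*, *Cd55* and *Edn1*, which were named with these data known. Each of them counts among the higher genes on both days. Among all 2841 genes above the limits on Day 7, 120 or 4.22% were higher past 2-fold, and among 2595 on Day 14, 60 or 2.31%. The medians over all these genes were -0.14 and 0.03. Since the same cells were grouped by *Pi16*, the counts describe which genes went with it and support no inference beyond that.

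Among the surface proteins, *Dpp4*, a dipeptidyl peptidase of the cell surface, was at 285 CPM against 88.6 CPM on Day 7 and at 269 CPM against 71.0 CPM on Day 14. *Cd34*, a sialomucin of progenitor cells, was at 687 CPM against 297 CPM on Day 7, a log2 ratio of 1.21, and at 647 CPM against 397 CPM on Day 14, a log2 ratio of 0.71. *Ly6c1* was past 2-fold on Day 7 alone, with log2 ratios of 1.39 and 0.71, and *Ly6a*, at 1940 CPM against 961 CPM and 2152 CPM against 1496 CPM, reached 1.01 and 0.52. For these 3 antigens the level in *Pi16*-high cells differed little between the days, by 0.19 or less on the log2 scale, while that in *Pi16*-low cells was higher on Day 14 by 0.42 to 0.64. *Cd248*, the endosialin of mesenchymal cells, had log2 ratios of 0.84 and 0.93 and was past 2-fold on neither day.

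The secreted and signalling members of the list varied. *Sema3c*, a secreted semaphorin, was at 482 CPM against 172 CPM on Day 7 and 438 CPM against 154 CPM on Day 14. *Anxa3*, a phospholipid-binding annexin, had log2 ratios of 1.81 and 2.50, but 23.3% and 9.20% of cells in the macrophage gate also held its UMIs after thinning. *Wnt2*, a Wnt ligand, was at 122 CPM against 46.8 CPM on Day 7 and 83.6 CPM against 18.9 CPM on Day 14. *Ackr3*, a scavenger receptor for CXCL12, was at 253 CPM against 137 CPM on Day 7 and 316 CPM against 118 CPM on Day 14, so that it was past 2-fold on Day 14 only. *Smpd3*, a neutral sphingomyelinase, was at 59.9 CPM (55.9 to 64.2) against 2.34 CPM on Day 7 and at 57.8 CPM (54.0 to 61.7) against 3.63 CPM on Day 14. *Limch1* and *Dact2* did not reach 50 CPM in any group, with *Limch1* at 22.7 CPM against 1.39 CPM on Day 7 and 30.9 CPM against 3.12 CPM on Day 14. The matrix genes *Mfap5* and *Fbn1*, which build microfibrils, were abundant in both groups, and *Fbn1* stood at 2382 CPM against 1393 CPM on Day 7 and 2344 CPM against 1178 CPM on Day 14, log2 ratios of 0.77 and 0.99. *Tppp3* and *Ccn3* had log2 ratios between 0.01 and 0.30.

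**Figure D2:**
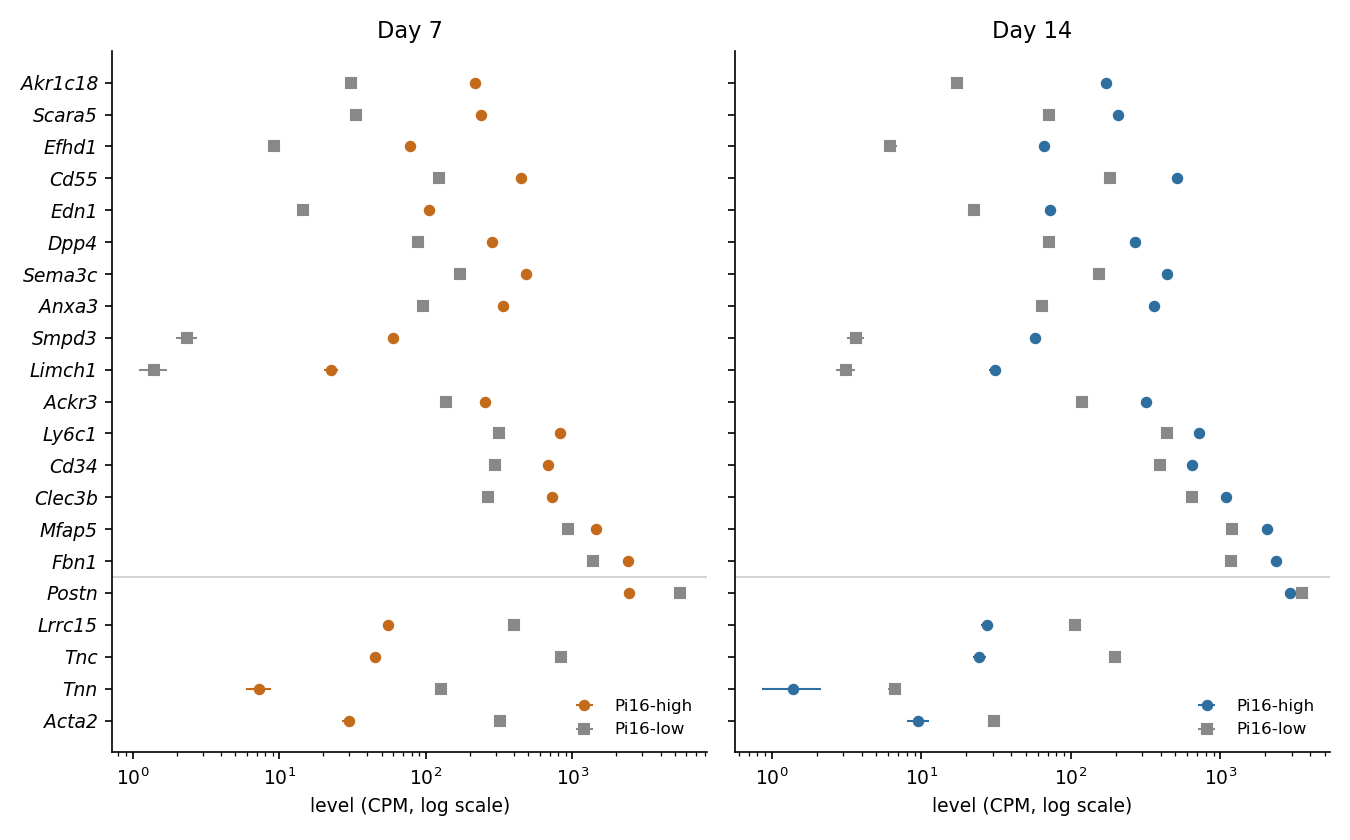
Levels in CPM (x axis, log scale) of 16 universal fibroblast genes (upper part) and 5 myofibroblast genes (lower part) in *Pi16*-high cells (coloured circles) and *Pi16*-low cells (grey squares) on Day 7 and Day 14, with 95% Poisson intervals. Every universal fibroblast gene shown lies further right in *Pi16*-high cells and every myofibroblast gene shown further left. The genes were picked from longer lists, and genes that differed little, such as *Tppp3* and *Ccn3*, are not shown.

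Over all genes, fewer passed 2-fold on Day 14 than on Day 7. Besides those higher, 102 genes or 3.59% were lower past 2-fold on Day 7 and 21 or 0.809% on Day 14, so that 7.81% and 3.12% passed 2-fold either way. Of the 2433 genes above the limits on both days, 45 or 1.85% were higher on both, 12 or 0.493% were lower on both, and 1 or 0.0411%, *Serpina3n*, lay on opposite sides. The 45 genes make up 41.7% of those higher on Day 7 and 78.9% of those higher on Day 14 within this set, and the 12 genes make up 19.7% and 75% of those lower. Across these genes, which are not independent replicates, the ratios of the 2 days had a Pearson correlation of 0.77 and a Spearman correlation of 0.66. Of the named genes, these calls were lost under at least 1 other choice of limits, reference or scaling, *Ly6a*, *C1s1*, *Serping1*, *Cxcl12*, *Loxl2*, *Emilin1*, *Cilp*, *Tgfbi*, *Dlk1*, *Sned1* and *Serpina3n* on Day 7, *Uap1* on both days, and *Gfpt2*, *Efemp1*, *Adam12*, *Cxcl13*, *Sfrp2*, *Fst*, *Ptgis*, *Col4a1*, *Col4a2* and *Mest* on Day 14. Between the days within *Pi16*-high cells they were *Plod2*, *Lrrc15*, *Ccl2*, *Cxcl14*, *C1qa*, *C1qb*, *Bmp3* and *Mustn1*.

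Among genes with at least 50 CPM in 1 of the 4 groups of both days and at least 10 UMIs in each, ranked by the smaller of their 2 ratios, the highest were *Smpd3*, *Aldh1a3*, *Efhd1*, *Bmp3*, *Akr1c18*, *Pla1a*, *Mustn1*, *Cxcl13*, *Prkg2*, *Tek*, *Pcsk6* and *C3*. All but *C3* were under 50 CPM in *Pi16*-low cells on both days. Such genes met the limit only through *Pi16*-high cells and could rank only as higher. *Efhd1* and *Akr1c18* are also markers named with these data known. *Aldh1a3*, which makes retinoic acid, was at 71.5 CPM (67.1 to 76.2) against 5.49 CPM on Day 7 and 53.8 CPM (50.1 to 57.6) against 4.61 CPM on Day 14. *Pla1a*, a phospholipase that acts on phosphatidylserine, was at 189 CPM against 28.5 CPM on Day 7 and 118 CPM against 16.1 CPM on Day 14. *Bmp3*, an atypical bone morphogenetic protein, had log2 ratios of 2.91 and 3.37 at 66.2 and 28.8 CPM in *Pi16*-high cells. *Tek*, the angiopoietin receptor better known from endothelium, was at 68.0 CPM against 14.9 CPM on Day 7 and 63.2 CPM against 16.0 CPM on Day 14. The endothelial genes *Pecam1* and *Cdh5* stood at 2.96 and 2.22 CPM in the same cells on Day 7 and at 1.78 and 1.58 CPM on Day 14, while *Kdr*, a VEGF receptor, was at 7.34 CPM against 9.41 CPM on Day 7 and 9.89 CPM against 6.81 CPM on Day 14. Under the same limits, the lowest genes were *Tnc*, *Ptn*, *Tnn*, *Crabp1*, *Top2a*, *Mki67*, *Lrrc15* and *Cpe*. All but *Ptn* and *Lrrc15* were under 50 CPM in *Pi16*-high cells on both days and could rank only as lower. *Tnc*, the matrix protein tenascin C, was at 45.3 CPM (41.8 to 49.0) against 840 CPM (833 to 848) on Day 7 and at 24.5 CPM (22.0 to 27.1) against 197 CPM (194 to 201) on Day 14. *Ptn*, the growth factor pleiotrophin, was at 60.5 CPM against 404 CPM on Day 7 and 71.8 CPM against 425 CPM on Day 14, log2 ratios of -2.74 (-2.84 to -2.64) and -2.56 (-2.65 to -2.48).

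**Figure D3:**
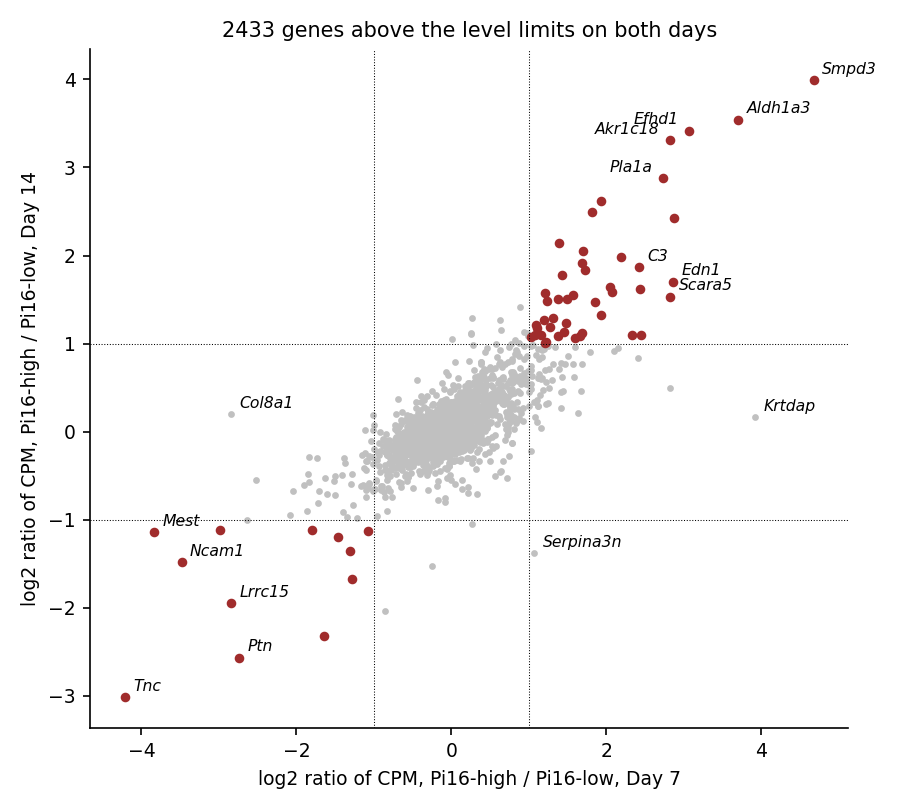
Log2 ratios of CPM in *Pi16*-high over *Pi16*-low fibroblasts on Day 7 (x axis) and Day 14 (y axis) for the 2433 genes above the level limits on both days, with dotted lines at 2-fold. Red points are the 45 genes higher and the 12 lower past 2-fold on both days, and *Serpina3n* lies alone in the lower right.

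Myofibroblast and proliferation genes were lower in *Pi16*-high cells. Of 13 myofibroblast genes above the limits on Day 7, 12 were lower past 2-fold, with a median of -1.84, against 3.59% of all genes. On Day 14, 3 of 8 were lower, with a median of -0.89, against 0.809% of all genes. *Acta2*, smooth muscle actin, was at 29.7 CPM against 323 CPM on Day 7, and on Day 14 was at 9.5 CPM against 30.5 CPM, under the level limit in both groups. *Lrrc15*, a surface protein of activated fibroblasts, was at 55.4 CPM against 398 CPM on Day 7 and 27.4 CPM against 106 CPM on Day 14. *Postn*, the matrix protein periostin, was at 2440 CPM against 5430 CPM on Day 7, and the groups were close on Day 14 with 2943 CPM against 3541 CPM, a log2 ratio of -0.27 (-0.28 to -0.25). *Cthrc1*, also tied to matrix-building fibroblasts, was past 2-fold on neither day, at 852 CPM against 1147 CPM and 1020 CPM against 1059 CPM. All 5 proliferation genes above the limits on Day 7 were lower past 2-fold, with *Mki67* at 7.56 CPM against 56.4 CPM and *Top2a* at 5.04 CPM against 52.1 CPM. These 5 genes were under 50 CPM in *Pi16*-high cells. So were some myofibroblast genes, such as *Acta2* and *Tnc* on Day 7 and *Lrrc15* on Day 14. Such genes met the limit only through *Pi16*-low cells and could be called only lower, so the counts are a description. None of the 12 proliferation genes reached the limits on Day 14, when *Mki67* was at 1.58 CPM against 6.47 CPM.

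The main fibrillar collagens differed by less than 2-fold between *Pi16*-high and *Pi16*-low cells. *Col1a1* was at 40092 CPM against 41124 CPM on Day 7 and 42561 CPM against 54296 CPM on Day 14, log2 ratios of -0.04 and -0.35. *Col3a1* had log2 ratios of 0.24 and 0.01. Of 15 collagen and cross-linking genes outside the gate, 6 were lower past 2-fold on Day 7, against 3.59% of all genes, 0 were higher, and 0 passed 2-fold on Day 14, against 3.12% of all genes either way. *Col12a1*, a collagen of fibril surfaces, was at 110 CPM against 684 CPM on Day 7 and 86.5 CPM against 173 CPM on Day 14. *Col6a3* had log2 ratios of -1.17 and -0.62, and the lysyl hydroxylase *Plod2* was at 128 CPM against 363 CPM and 60.4 CPM against 85.7 CPM. *Col14a1*, another fibril-associated collagen, went the other way with 1781 CPM against 1077 CPM on Day 7 and 1644 CPM against 1255 CPM on Day 14. Among 15 elastic fibre genes on Day 7, 4 were higher and 1 lower past 2-fold, beside 4.22% and 3.59% of all genes, and among 16 on Day 14, 2 were higher, beside 2.31%. *Eln*, elastin, was at 388 CPM against 143 CPM on Day 7 and 1810 CPM against 1309 CPM on Day 14. *Efemp1*, a fibulin, had log2 ratios of 1.66 and 1.09, and *Emilin2* had 1.21 and 1.57, while *Emilin1* had -1.13 and -0.41.

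Complement genes, known chiefly from liver and also made by fibroblasts, were higher in *Pi16*-high cells, chiefly on Day 7. Of 9 above the limits on Day 7, 7 were higher past 2-fold with a median of 1.19, and of 8 on Day 14, 2 were, *C3* and *Cd55*, with a median of 0.60. The shares of all genes that were higher past 2-fold were 4.22% on Day 7 and 2.31% on Day 14. *Cd55*, which is also one of the markers of the population, counts among them on both days. *C3*, the central complement component, was at 1137 CPM (1119 to 1155) against 212 CPM on Day 7 and 322 CPM (313 to 331) against 87.9 CPM on Day 14. *C4b* was at 501 CPM against 161 CPM on Day 7 but 199.8 CPM against 172 CPM on Day 14. The complement inhibitor *Serping1* was at 1686 CPM against 782 CPM and 1601 CPM against 1246 CPM, and *Cfb* was at 405 CPM against 178 CPM and 100.4 CPM against 51.6 CPM. *C2* had log2 ratios of 0.21 and -0.63. Of the acute-phase genes, 1 of 4 was higher past 2-fold on Day 7, *Lbp*, and 0 of 1 on Day 14. *Lbp*, which binds bacterial lipopolysaccharide, was at 615 CPM against 116 CPM on Day 7 and 190 CPM against 106 CPM on Day 14. *Saa3*, a serum amyloid, was spread over both groups on Day 7 with 631 CPM against 574 CPM.

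Most chemokines differed by less than 2-fold. Of 11 chemokine and cytokine genes above the limits on Day 7, 1 was higher and 2 were lower past 2-fold, and of 13 on Day 14, 1 was higher and 1 lower. Of all genes, 4.22% were higher and 3.59% lower on Day 7, and 2.31% and 0.809% on Day 14. The eosinophil chemokine *Ccl11* was at 200 CPM against 74.8 CPM on Day 7 and 285 CPM against 208 CPM on Day 14. *Cxcl13*, a B cell chemokine, was at 41.1 CPM against 5.87 CPM on Day 7, below the level limit, and 71.2 CPM against 13.8 CPM on Day 14. After thinning, 5.15% and 7.41% of *Pi16*-high cells held a *Cxcl13* UMI, shares that its low level also limits. With *Pi16* read after thinning or with other limits, its Day 14 log2 ratio of 2.37 ranged from 0.90 to 3.31. The neutrophil chemokine *Cxcl5* was lower at 33.0 CPM against 208 CPM on Day 7, and *Cxcl12* was lower on both days at 97.6 CPM against 205 CPM and 78.1 CPM against 171 CPM. *Ccl2*, *Ccl7*, *Cxcl1* and *Cxcl2* had log2 ratios between -0.32 and 0.69. *Cxcl12* is also among the genes of *Col15a1*-type fibroblasts, the other widespread population. Of these, *Gsn* was higher and *Cxcl12* lower past 2-fold among 7 on Day 7, where the *Cxcl12* log2 ratio of -1.07 came to as little as -0.96 under the other settings. A total of 4 of 9 were lower past 2-fold on Day 14, namely *Cxcl12*, *Penk*, *Col4a1* and *Col4a2*, against 0.809% of all genes, and *Col15a1* itself was at 45.8 CPM against 88.9 CPM on Day 7 and 149 CPM against 290 CPM on Day 14.

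The lists of signalling genes, enzymes and regulators were short, and their counts are to be read beside the shares of all genes, 4.22% higher and 3.59% lower on Day 7 and 2.31% higher and 0.809% lower on Day 14. Of the Wnt and BMP genes above the limits, 1 of 7 was higher past 2-fold on Day 7, *Wnt2*, and 3 of 8 on Day 14, *Wnt2*, *Sfrp2* and *Fst*. *Wnt2* is also on the universal fibroblast list, and the calls of *Sfrp2* and *Fst* were each lost under at least 1 other setting. *Sfrp2*, a secreted Wnt antagonist, was at 1564 CPM against 1310 CPM on Day 7 and 1562 CPM against 718 CPM on Day 14. *Bmp7* stayed under the level limit, at 30.0 CPM against 2.38 CPM and 22.7 CPM against 4.42 CPM. *Grem1*, a BMP antagonist, was nearly absent from *Pi16*-high cells at 0.963 CPM against 11.1 CPM and 1.45 CPM against 18.7 CPM. In the steroid and retinoid list 3 of 7 genes were higher and 2 lower past 2-fold on Day 7, and 2 of 5 were higher on Day 14. *Akr1c18*, one of the markers of the population, counts among the higher genes on both days. *Aldh1a3* was high as given above, whereas the retinoid-binding *Crabp1* was at 4.96 CPM against 76.9 CPM on Day 7 and 8.71 CPM against 38.0 CPM on Day 14. Of the receptors, 1 of 11 was higher past 2-fold on Day 7, *Ntrk2*, and 1 of 10 on Day 14, *Ackr3*. *Ntrk2*, the BDNF receptor, was at 51.1 CPM against 10.4 CPM on Day 7 and 39.4 CPM against 16.1 CPM on Day 14. Of the endothelin and prostanoid genes, 1 of 6 was higher past 2-fold on Day 7, *Edn1*, and 2 of 5 on Day 14, *Edn1* and *Ptgis*. *Edn1* is also one of the markers of the population, named with these data known, and the *Ptgis* call was lost under at least 1 other setting. *Ptgis*, prostacyclin synthase, was level on Day 7, 101 CPM in each group, and at 70.5 CPM against 34.1 CPM on Day 14. Among 14 transcription factors on Day 7, *Ebf2* and *Creb5* were higher past 2-fold and *Runx2* was lower, and of 13 on Day 14 only *Ebf2* was past 2-fold, at 118 CPM against 50.2 CPM. In the TGF-beta list 1 of 7 genes, *Tgfbi*, was lower past 2-fold on Day 7 and 0 of 7 passed on Day 14, and of the adipogenic genes 1 of 6, *Dlk1*, was lower on Day 7 and 0 of 5 passed on Day 14. Of the 10 hyaluronan and lubrication genes on Day 7, 3 were higher past 2-fold, and 2 of 9 on Day 14, with *Uap1*, an enzyme of sugar nucleotide supply, past 2-fold on both days and the hyaluronan synthase *Has1* on neither, at 738 CPM against 413 CPM and 1268 CPM against 823 CPM.

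A pair of gene lists comes from the study itself. Its F3 list was drawn from these libraries and its candidate list from other wounds compared with these libraries, so neither is independent evidence. Its F3 fibroblast genes other than *Pi16*, namely *Anxa3*, *C3*, *Cd55*, *Dpp4*, *Prss23*, *Scara5* and *Sema3c*, were all 7 higher past 2-fold on both days, with medians of 1.81 and 1.53, beside 1.85% of all genes above the limits on both. Of its candidate genes above the limits, 4 of 8 were higher past 2-fold on Day 7 and 1 of 7 on Day 14. The shares of all genes were 4.22% and 2.31%. *Itgbl1*, an integrin-like secreted protein, had similar pooled levels in the groups, at 76.8 CPM against 88.6 CPM on Day 7 and 299 CPM against 340 CPM on Day 14. On Day 14, from cells with no *Pi16* UMI to cells with the largest *Pi16* share, it stood at 327, 352, 330, 273 and 122 CPM. *Lrrc17* had log2 ratios of -0.41 and 0.25.

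The levels of many genes rose or fell with *Pi16* across the gated fibroblasts. Gated fibroblasts were split into 5 bins by their *Pi16* share of UMIs, none, above 0 to below 0.05%, 0.05 to below 0.1%, 0.1 to below 0.2%, and 0.2% and over, which held 3663, 1621, 676, 584 and 178 cells on Day 7 and 3195, 2503, 893, 469 and 136 on Day 14. The last bin was also the shallowest, with median totals of 7650.5 and 7571 UMIs. Of all 2903 genes above the limits, 13.1% on Day 7 and 18.8% on Day 14 were higher in every bin than in the bin before it. Of the 25 universal fibroblast genes among them, 22 and 23 were, and 0 were lower in every bin. These counts run over all 5 bins, so they include the contrast with *Pi16*-low cells, and the *Pi16*-high bins were not counted alone. The 25 genes also include the markers named with these data known. Since the cells were ordered by *Pi16* itself, the counts describe which genes went with it. *Scara5* stood at 14.5, 74.0, 192, 265 and 366 CPM across the bins on Day 7 and at 61.8, 82.1, 160, 273 and 369 CPM on Day 14. *Efhd1* went from 4.05 to 120 CPM on Day 7 and from 1.62 to 146 CPM on Day 14. *Smpd3* went from 0.700 through 5.83, 25.5 and 68.6 to 204 CPM on Day 7 and from 0.854 through 6.53, 28.4 and 73.5 to 268 CPM on Day 14. *Akr1c18* levelled off on Day 7, at 186, 252 and 236 CPM in the 3 *Pi16*-high bins, but not on Day 14, at 125, 232 and 348 CPM. Thus cells with a little *Pi16*, grouped as *Pi16*-low, already lay between cells with none and *Pi16*-high cells for these genes.

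Of all 2903 genes, 26.5% on Day 7 and 10.3% on Day 14 were lower in every bin than in the bin before, and of the 13 myofibroblast genes among them 10 and 8 were. *Tnc* went from 1096 through 300 to 55.7, 35.0 and 31.7 CPM on Day 7. Within *Pi16*-high cells of Day 14 it went from 33.3 through 9.77 to 5.94 CPM. *Eln* followed no single order on Day 14, with 1090, 1537, 1967, 1689 and 853 CPM, and neither did *Cilp*, a matrix protein of late wounds, with 420, 636, 532, 312 and 58.4 CPM. *Mfap4*, an elastic fibre protein, was lower in each further bin on Day 14, from 1449 to 226 CPM. *Col1a1* was also lower in each further bin of Day 14, from 57886 to 27418 CPM, and followed no single order on Day 7, from 38809 to 34079 CPM. Over the 10 bins of both days, the genes most like *Pi16* by Spearman correlation of log2(CPM + 1) were *Ace*, *Plxdc2* and *Serpinb6a* at 0.997, followed by 23 genes tied at 0.985, among them *Aldh1a3*, *Cd34*, *Cxcl13*, *Acadsb*, *Adgrd1*, *Antxr2* and *Cox7a2l*. The bins of a day share a library, and 184 of 2903 genes reached 0.9, so this ranking is a description.

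**Figure D4:**
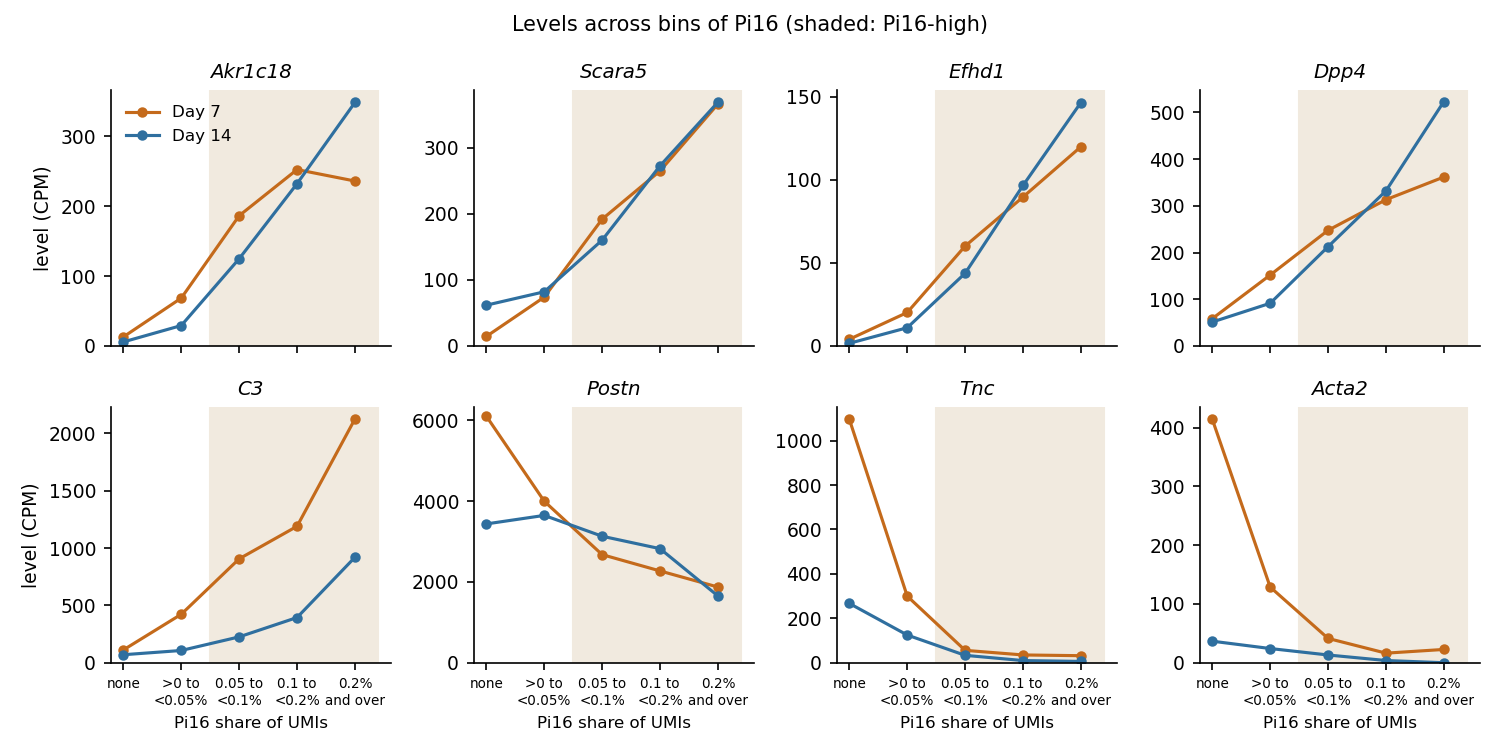
Levels in CPM (y axis) of 8 genes across 5 bins of the *Pi16* share of UMIs (x axis) on Day 7 (orange) and Day 14 (blue), with the *Pi16*-high bins shaded. *Scara5*, *Efhd1*, *Dpp4* and *C3* are higher in each further bin on both days, while *Tnc* is lower in each further bin.

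The *Pi16*-high population overlapped with some other fibroblast states and hardly with others. *C3*-high cells, with at least 0.1% of UMIs in *C3*, made up 45.3% (42.7 to 48.0%) of *Pi16*-high cells on Day 7 and 13.7% (205 of 1498) on Day 14, against 6.30% and 2.44% of *Pi16*-low cells. Seen from the other side, 66.2% of the 985 *C3*-high fibroblasts on Day 7 and 59.6% of the 344 on Day 14 were *Pi16*-high. *Acta2*-high cells, at the same limit for *Acta2*, were 6 of 1438 *Pi16*-high cells on Day 7, or 0.417%, against 8.69% of *Pi16*-low cells. *Lrrc15*-positive cells, after thinning, were 7.37% against 43.3% on Day 7 and 3.87% against 13.7% on Day 14. *Cxcl5*-positive cells were 3.41% against 13.9% on Day 7 and 1.27% against 1.54% on Day 14. *Mki67*-positive cells were 1.32% against 5.68% on Day 7 and 0.401% against 0.737% on Day 14. *Tnmd*-positive cells, named for a tendon protein, were 2.54% against 9.65% on Day 14. *Cilp*-high cells were closer, 12.8% (11.2 to 14.6%) against 17.2% (16.2 to 18.2%) on Day 14. *Bmp4*-positive cells were few on Day 7, 28 in all, of which 17 were *Pi16*-high, and on Day 14 they made up 2.67% against 2.84%.

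*Pi16*-high cells were next split into those high and low in *C3*, and the genes given are examples, with no count over all genes. The *Pi16* level itself stood at 1323 against 1040 CPM on Day 7 and 1475 against 973 CPM on Day 14, *C3*-high first. *Smpd3* was at 108 against 22.3 CPM on Day 7 and at 333 against 26.4 CPM on Day 14. *Dpp4* was at 304 against 269 CPM on Day 7 and 531 against 239 CPM on Day 14, and *Efhd1* was at 77.6 against 77.4 CPM and 170 against 54.4 CPM. *Gsn*, the actin-severing gelsolin, was at 2317 against 1144 CPM on Day 7 and 7083 against 2126 CPM on Day 14. *Pcolce2*, which aids procollagen cleavage, was at 234 against 121 CPM and 945 against 196 CPM. Other matrix genes were lower in the *C3*-high cells of Day 14, chosen here after their values were seen, with *Eln* at 267 against 1986 CPM, *Mfap4* at 58.6 against 1118 CPM, *Cilp* at 44.4 against 479 CPM and *Postn* at 1171 against 3145 CPM. The *C3*-high cells among *Pi16*-low fibroblasts of Day 14 also held little *Eln* and *Mfap4*, 237 and 175 CPM, and much *Gsn*, 6852 CPM. They differed from *Pi16*-high *C3*-high cells in *Smpd3* at 67.3 CPM, *Efhd1* at 23.8 CPM and *Cxcl12* at 421 against 44.4 CPM. On Day 14 the *C3*-high *Pi16*-high group held 205 cells and was the shallower, with a median of 7467 against 10170 UMIs.

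The *Pi16*-high cells of Day 14 were next compared with those of Day 7. Of 2691 genes above the limits, 57 or 2.12% were higher past 2-fold on Day 14 and 46 or 1.71% were lower, 3.83% in all. Of the 25 universal fibroblast genes, 0 were past 2-fold between the days, with a median of -0.09 and a range from -0.62 to 0.71. With so few of all genes past 2-fold, this count does not set the list apart, and 0 of 12 transcription factors, 0 of 8 Wnt and BMP genes and 0 of 12 immediate early and heat shock genes passed either. In *Pi16*-low cells 2 of 20 universal fibroblast genes were higher past 2-fold on Day 14, with a median of 0.32. *Pi16*-low fibroblasts had 100 genes or 3.53% higher and 134 or 4.73% lower of 2835, 8.25% in all. On the 2523 genes above the limits in both groups, 52 were higher and 41 lower in *Pi16*-high cells, against 84 higher and 75 lower in *Pi16*-low cells. Of these, 32 higher genes were shared, or 61.5% of those in *Pi16*-high and 38.1% of those in *Pi16*-low cells, as were 26 lower genes, or 63.4% and 34.7%. The difference between the groups in these counts was not tested. In the Day 3 library, with few cells past the same limits, 119 of 3144 genes or 3.78% were higher and 157 or 4.99% lower past 2-fold in *Pi16*-high cells, 8.78% in all.

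Among genes with at least 50 CPM on 1 of the days and at least 10 UMIs on each, those with the largest Day 14 to Day 7 ratios in *Pi16*-high cells were *Col8a1*, *Cilp*, *Fbln7*, *Thbs4* and *Angptl1*, while 1 of 15 collagen and cross-linking genes and 2 of 15 elastic fibre genes were higher past 2-fold, beside 2.12% of all genes. *Col8a1*, a short-chain collagen, went from 12.4 CPM (10.6 to 14.5) to 245 CPM (237 to 253), a log2 ratio of 4.30 (4.07 to 4.53), against 1.25 in *Pi16*-low cells. *Cilp* went from 24.7 to 435 CPM, a ratio of 4.13 against 3.35. *Fbln7*, *Thbs4* and *Angptl1* had 3.75, 3.57 and 3.35, against 2.44, 1.67 and 1.97. These ratios are over all *Pi16*-high cells. From the lowest to the highest *Pi16*-high bin of Day 14, *Fbln7* stood at 111, 47.1 and 1.98 CPM. In the same order *Thbs4* stood at 81.2, 41.7 and 2.97 CPM, *Col8a1* at 251, 272 and 59.4 CPM and *Angptl1* at 233, 149 and 44.5 CPM. In the highest bin of Day 7, *Fbln7* and *Thbs4* were each at 1.51 CPM, *Col8a1* at 6.03 CPM and *Angptl1* at 8.29 CPM. Against *Pi16*-low cells, 2 of 9 late scar fibroblast genes were higher and 1 lower past 2-fold on Day 7, and 2 of 12 were lower on Day 14, beside shares of all genes of 4.22% higher and 3.59% lower on Day 7 and 0.809% lower on Day 14. Of 10 late scar fibroblast genes, 4 were higher past 2-fold on Day 14 in *Pi16*-high cells, and 10 of 12 in *Pi16*-low cells, beside 2.12% and 3.53% of all genes. *Itgbl1* had nearly the same ratio in both, 1.96 (1.86 to 2.06) and 1.94 (1.89 to 1.98), and *Mfap4* had 2.05 and 2.07. *Tnmd*, *Igfbp2* and *Ppp1r14a* stood at 16.8 CPM against 73.6 CPM, 8.57 CPM against 89.4 CPM and 3.50 CPM against 41.9 CPM in *Pi16*-high against *Pi16*-low cells of Day 14. In *Pi16*-high cells of Day 7 they were at 1.26, 0.0741 and 0.593 CPM.

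Acute-phase genes and *Prg4* were lower on Day 14, with 3 of 4 acute-phase genes past 2-fold, beside 1.71% of all genes. *Hp*, haptoglobin, went from 60.4 to 1.45 CPM in *Pi16*-high cells, a log2 ratio of -5.38 (-6.06 to -4.77), against -3.53 in *Pi16*-low cells. *Saa3* went from 631 to 28.8 CPM, *Prg4*, the lubricant lubricin, from 223 to 14.4 CPM, and *Spp1*, osteopontin, from 81.7 to 2.84 CPM. *Chl1*, a cell adhesion molecule, went from 94.9 to 14.2 CPM. *C3*, *C4b* and *Cfb* were the 3 complement genes lower past 2-fold, with log2 ratios of -1.82, -1.33 and -2.01. In *Pi16*-low cells the ratios were -1.27 for *C3*, 0.10 for *C4b* and -1.79 for *Cfb*. In the same *Pi16*-high cells the summed neutrophil markers stood at 91.0 CPM on Day 7 and 0.791 CPM on Day 14 and the summed macrophage markers at 629 and 329 CPM, and in the macrophage gate *Spp1* stood at 2750 CPM on Day 7 and 129 CPM on Day 14. The part of RNA from other cells in these ratios was not tested. Among chemokine and cytokine genes 3 of 13 were higher past 2-fold on Day 14, *Ccl2*, *Cxcl9* and *Cxcl14*, beside 2.12% of all genes. Under at least 1 other setting *Ccl2* came down from a log2 ratio of 1.10 to 0.88 and *Cxcl14* from 1.51 to 0.92, so both calls were lost.

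**Figure D5:**
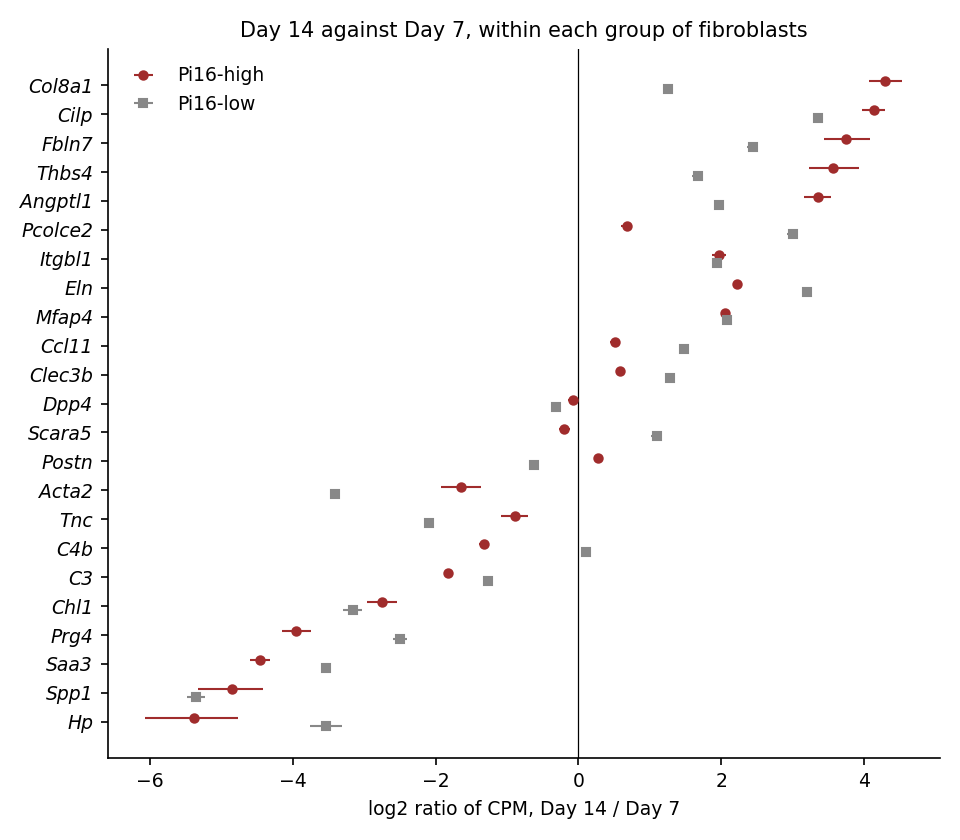
Log2 ratios of CPM on Day 14 over Day 7 (x axis) within *Pi16*-high cells (red circles) and *Pi16*-low cells (grey squares) for 23 genes, with 95% intervals for counting error. *Scara5* and *Dpp4* lie near 0 in *Pi16*-high cells, and among the red circles *Col8a1* lies furthest right and *Hp* furthest left.

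For some genes the contrast between *Pi16*-high and *Pi16*-low cells itself differed between the days. *Col8a1* was lower in *Pi16*-high cells on Day 7, with a log2 ratio of -2.84, and alike on Day 14, with 0.20. *Mest*, *Ncam1*, *Inhba* and *C1qtnf3* came next by the difference between the days' ratios, under the same limits over the 4 groups. Their ratios were -3.84, -3.48, -3.70 and -2.52 on Day 7 and -1.14, -1.48, -1.70 and -0.55 on Day 14. Unlike *Col8a1*, these genes were thus still lower in *Pi16*-high cells on Day 14. *Inhba* stood at 32.2 CPM or less in every bin of *Pi16* on that day. In the other direction, *Krtdap*, a gene known from differentiating keratinocytes, was at 57.6 CPM (53.6 to 61.8) against 3.80 CPM on Day 7 and at 103 CPM against 91.8 CPM on Day 14. On Day 7 it was higher in each further bin of *Pi16*, up to 83.7 CPM, and 8.41% of *Pi16*-high cells held its UMI after thinning, against 0.643% of *Pi16*-low cells and 0.0880% of the macrophage gate. The keratinocyte keratins *Krt5*, *Krt14* and *Krt1* stood at 0.222, 1.19 and 0.445 CPM in the same cells of Day 7, and at 9.17, 21.6 and 32.3 CPM on Day 14, when the macrophage gate held *Krtdap* at 42.9 CPM. *Krt10*, a keratin of differentiating keratinocytes, stood at 19.0 CPM against 15.7 CPM on Day 7 and 81.6 CPM against 94.8 CPM on Day 14. *Pcolce2* was at 171 CPM against 24.1 CPM on Day 7 and 273 CPM against 193 CPM on Day 14. *Sned1* had log2 ratios of 1.09 and -0.68, and *Hp* had 0.89 and -0.96. On Day 14 *Hp* stood at 3.27 CPM or less in every bin of *Pi16*, so its ratio there rests on few UMIs. *Sned1* stood at 57.7 CPM or less in every bin of that day. *Serpina3n*, a protease inhibitor, lay on opposite sides of 2-fold, at 194 CPM (187 to 201) against 92.4 CPM on Day 7 and 43.8 CPM (40.5 to 47.3) against 114 CPM on Day 14. Across the *Pi16* bins it went up on Day 7, from 63.3 to 257 CPM, and down on Day 14, from 137 to 24.7 CPM.

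Immediate early genes, which respond to tissue dissociation, differed by less than 2-fold. Of 12 immediate early and heat shock genes, 0 were past 2-fold on either day. Only 7.81% of all genes passed 2-fold either way on Day 7 and 3.12% on Day 14, so this count does not set the list apart. The log2 ratios of the 12 genes ran from -0.14 to 0.71 on Day 7 and from -0.52 to 0.12 on Day 14. *Fos* was at 1661 CPM against 1666 CPM on Day 7 and 1820 CPM against 2016 CPM on Day 14.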

How the data were processed

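Skin wound cells of C57BL/6J mice were profiled with 10x Genomics Chromium 3' v3.1 chemistry in 1 library each for Days 3, 7 and 14. The submitters' processing notes name Cell Ranger 6.0.0 and mm10. The authors deposited raw UMI counts per gene and barcode with no normalization. Of 32285 Ensembl gene IDs, 32158 had a symbol. The libraries held 38133650, 120940799 and 112713257 UMIs on Days 3, 7 and 14, and gated cells had a median of 10557.5 and 10578.5 UMIs on Days 7 and 14.

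Counts were summed per group and library and expressed as CPM. Intervals are exact Poisson for CPM, conditional binomial for ratios and Clopper-Pearson for shares. Since each group comes from 1 library, no test was run. Genes entered comparisons with at least 50 CPM and 10 UMIs in 1 group, with *Pi16* and the gate genes left out of counts. The macrophage gate held barcodes with the same UMI and mitochondrial limits, at least 1% of UMIs in the 4 immune genes and less than 1.5% in the fibroblast genes. Doublets were called with Scrublet (scanpy 1.11.5) and removed only in an alternative. The genes named are those of the lists, the 12 highest and 8 lowest by the smaller of both days' ratios, the 5 highest and 5 lowest for Day 14 against Day 7 within *Pi16*-high cells and for the difference between the days' ratios, and the 10 most like *Pi16* over bins. Ranked genes had at least 10 UMIs in each group, and mitochondrial genes, ribosomal protein genes and *Gm42418* were not ranked. The members, lists and limits were chosen with earlier results of these data known. The interval script was tested on simulated counts. Alternatives were other limits for *Pi16*, UMIs, mitochondrial, immune and fibroblast genes, thinning, doublet removal, another reference, other scalings and no level limit. Python 3.11.15, numpy 2.4.6, scipy 1.17.1, pandas 2.3.3 and matplotlib 3.10.9 were used.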

Additional observations from a re-analysis of the deposited data

Results flagged for a closer look

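The Day 3 library, which is no part of the Day 7 and Day 14 comparisons, also gave *Pi16*-high cells under the same limits, 58 of 367 gated fibroblasts or 15.8% (12.2 to 19.9%). *Pi16*, which chose these cells, stood at 1420 CPM in them, 96.0 CPM in *Pi16*-low fibroblasts and 14.3 CPM in the macrophage gate of that library.

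The heat shock genes *Hspa1a* and *Hspa1b* and the protease inhibitor *Serpina3n* lay on opposite sides of *Pi16*-low cells on the 2 days. *Hspa1a* was at 443 CPM against 270 CPM on Day 7 and 290 CPM against 416 CPM on Day 14, log2 ratios of 0.71 (0.67 to 0.76) and -0.52 (-0.57 to -0.48) that differ by -1.24. *Hspa1b* was at 525 CPM against 355 CPM and 318 CPM against 450.0 CPM, log2 ratios of 0.57 and -0.50 that differ by -1.07. The near-identical sequences of these 2 genes make the split of reads between them uncertain. *Serpina3n* had log2 ratios of 1.07 (1.00 to 1.14) and -1.38 (-1.49 to -1.26), which differ by -2.44. With 1 library per day, none of these differences was tested, and *Serpina3n* belongs to a family of close paralogs that share sequence.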

How the results depend on the processing

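None of the 168 named ratios past 2-fold changed sign under any of the 14 alternatives, and 137 stayed past 2-fold under each that gave a value. The 31 others had log2 ratios of at most 1.51 in size, apart from *Cxcl13* on Day 14. With *Pi16* at 0.1% or more, the *Pi16*-high share was 11.3% on Day 7 and 8.41% on Day 14, and 95 genes were higher and 53 lower on Day 14 and 27 lower on both days. With *Pi16* read after thinning, the shares were 15.0% and 14.1%. With at least 3% fibroblast genes, the Day 14 share was 19.9%, 13 genes were lower on Day 14 and 6 on both days. Against cells with no *Pi16* UMI, 182 genes were higher on Day 7, 99 on Day 14 and 71 on both days, and 38 were lower on Day 14. With no minimum CPM, 606 were higher and 1837 lower on Day 7, 476 and 1598 on Day 14, 206 and 672 on both days, and 810 and 1023 on Day 14 against Day 7 in *Pi16*-high cells, since genes with few UMIs then count. No paired analysis was possible because each day has 1 library and the days are not replicates, although both groups of a day were compared within that library. Depth, pooling of wounds and the single library per day limit every value, and the part of free RNA and undetected doublets was not tested.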

Other observations

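In the Day 3 library, the 58 *Pi16*-high cells were much deeper than later ones, with a median of 38476 UMIs against 48996 in the 309 *Pi16*-low cells. Of 3144 genes above the limits, 119 or 3.78% were higher past 2-fold and 157 or 4.99% were lower. The universal fibroblast genes were mixed, with 5 of 19 higher and 1 lower, and a median of 0.47. Their log2 ratios ran from -3.00 to 3.86. *Scara5* was at 67.1 CPM against 4.62 CPM, *Dpp4* at 133 CPM against 62.4 CPM, *Cd34* at 458 CPM against 210 CPM and *Akr1c18* at 31.0 CPM against 9.48 CPM. *Edn1* was at 1.31 CPM in each group and *Efhd1* at 6.54 CPM against 5.18 CPM, both under the level limit. *Anxa3* was alike at 172 CPM against 175 CPM.

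Of 9 complement genes on Day 3, 8 were higher past 2-fold, beside 3.78% of all genes, with a median of 1.68, and *C3* was at 1093 CPM against 148 CPM. All 5 acute-phase genes above the limits were higher, with *Saa3* at 18783 CPM against 4138 CPM, *Lbp* at 407 CPM against 52.8 CPM and *Hp* at 112 CPM against 34.0 CPM. *Cxcl13* was at 225 CPM against 9.79 CPM. Of 11 myofibroblast genes 8 were lower past 2-fold, beside 4.99% of all genes, with *Acta2* at 11.8 CPM against 150 CPM and *Tnc* at 228 CPM against 708 CPM. With 58 cells in 1 library, these values describe that library only.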
